A study of Homo sapiens with 6 samples.

Results

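The ubiquitin-conjugating E2 enzymes encoded by the UBE2 genes were followed here in HL-60, a human acute myeloid leukaemia line. Members were the gene symbols made of UBE2, 1 further letter and optional digits, which gave 34 of the 43424 symbols in the count files. A protein is tagged with ubiquitin in a relay: an E1 enzyme activates ubiquitin, an E2 carries it as a thioester on its active-site cysteine, and an E3 ligase brings the loaded E2 to a substrate. The E2 largely sets which kind of chain is built, and some E2s carry the ubiquitin-like proteins SUMO, NEDD8, ISG15 or FAT10 in place of ubiquitin. In leukaemia cells the system is known for timing mitosis, clearing misfolded proteins and passing on signals from DNA damage and inflammation.

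The study set 3 libraries labelled CIP beside 3 labelled DMSO, all from HL-60 cells of wild-type genotype. CIP stands for a plant extract, from Corydalis incisa (Thunb.) Pers., given for 6 months at a concentration raised slowly from 2 to 20 µg/ml, and the CIP-labelled cells are described as resistant to it. The DMSO-labelled cells were kept in that solvent for the same 6 months, and the stated purpose was to find genes with a role in the differentiation that CIP brings about. QuantSeq, the method used, counts reads near the polyadenylated 3' end of each transcript, so a count stands for transcript ends and not for transcript length. Separate cultures are not named for the replicates, nor is it said whether the resistant cells were 1 clone, and the p-values therefore measure the spread between these libraries, which may be technical.

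The libraries held 8143657 to 10868396 counts, of which 0.232% to 0.236% fell on E2 genes under the CIP label and 0.211% to 0.219% under the DMSO label. Before the results, genes that mark HL-60 were read under each label, because the line is known to make much MPO (myeloperoxidase) and to carry extra copies of MYC. For MPO, counts under the CIP label were 77887, 82824 and 84917 against 15, 9 and 9 under the DMSO label, and for MYC they were 2337, 3288 and 2315 against 468, 414 and 349. CDKN2A had 222, 292 and 294 against 1028, 1066 and 1149 counts. In MPO the DMSO-labelled libraries thus go against a known feature of the line, and groups are called by their labels throughout. Among markers of other cells, the summed level of the 12 monocyte and macrophage genes was 77.3 to 103 CPM (counts scaled to a common library size) against 493 to 519 CPM, with CD163 and FCGR3A at 0 in all libraries. LYZ (17.7 against 232 CPM) and CTSB (19.1 against 211 CPM) made up most of that sum under the DMSO label. Of the 7 monocyte and macrophage genes tested, 5 were called lower, 1 did not pass and CTSS was called higher (47.4 against 26.6 CPM). CD14 (0.077 against 0 CPM) and CSF1R (0.63 against 0.849 CPM) were too low to be tested, and their libraries overlapped. For this and the next marker lists, the shares over all tested genes were 34.9% higher and 38.2% lower. No marker list was tested against them. The 12 lymphoid genes summed to 5.04 to 6.03 against 88.1 to 109 CPM (MS4A1 at 0), mostly NKG7 (3.19 against 79.5 CPM). Of the 4 lymphoid genes tested, 3 were called lower and 1 did not pass. The 12 epithelial, fibroblast and endothelial genes summed to 147 to 215 against 346 to 493 CPM (CDH5 at 0). VIM (77.7 against 179 CPM) and FN1 (59.4 against 121 CPM) made up most of it. Of the 9 tested, 2 (VIM and PECAM1) were called lower. The other 7, FN1, COL1A1, COL1A2, COL3A1, KRT8, KRT18 and KRT19, did not pass. The 14 erythroid genes summed to 572 to 616 against 208 to 218 CPM, with ALAS2, GYPB, HBA2, HBG1 and HBG2 among those at 0. TFRC, the transferrin receptor of all growing cells, made up most of the sum under the CIP label (532 CPM, against 45.4 CPM under the DMSO label), and of the 4 erythroid genes tested it was the 1 called higher, while GYPC and EPOR were called lower. The part of these differences in the E2 results was not tested, and a difference between cultures in the cells they hold cannot be told apart from the CIP label.

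Most E2 genes differed between the labels, and more of them were higher than lower with the CIP label. Of the 34 genes, 32 passed the filter on low counts and were tested with edgeR's quasi-likelihood test, with Benjamini-Hochberg adjustment over all 12844 tested genes and a call at an adjusted p under 0.05. UBE2U, a little-studied E2, had 0 counts in every library, and UBE2L5, a close copy of UBE2L3, had 1, 0 and 2 counts against 4, 3 and 5, so neither was tested. Calls in either direction numbered 24 of 32 (75%), beside 73.1% of all tested genes, a share near the background. Higher calls numbered 17 (53.1%, beside 34.9% of all tested genes) and lower calls 7 (21.9%, beside 38.2%). Of the 32 tested E2 genes, 7 (21.9%) were called and differed 2-fold or more, beside 39.0% of all tested genes. The 3 libraries of one label lay wholly above or below those of the other for 24 E2 genes (75%), beside 75.4% of all tested genes. The median log2 fold change of the 32 was 0.31 (CIP label minus DMSO label), beside -0.03 for all tested genes.

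Counts summed over the E2 genes, scaled by TMM-adjusted library totals, came to 2540, 2528 and 2542 CPM with the CIP label and to 2003, 1974 and 2011 CPM with the DMSO label. The ratio of the group means was 1.27, and the groups did not overlap. Abundant genes weigh most in this sum, such as UBE2D3 (361 against 182 CPM) and UBE2E1 (257 against 171 CPM), while 7 E2 genes were called lower. With library totals alone as the scale the ratio was 1.08, the median of all genes was -0.26 and that of the E2 genes 0.08. That scaling also moved the share of higher calls among all called genes from 47.7% to 36.8%, and the E2 calls from 17 higher and 7 lower to 13 and 8. In these bulk libraries, fewer cells of a type and less RNA per cell cannot be told apart.

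**Figure D1:**
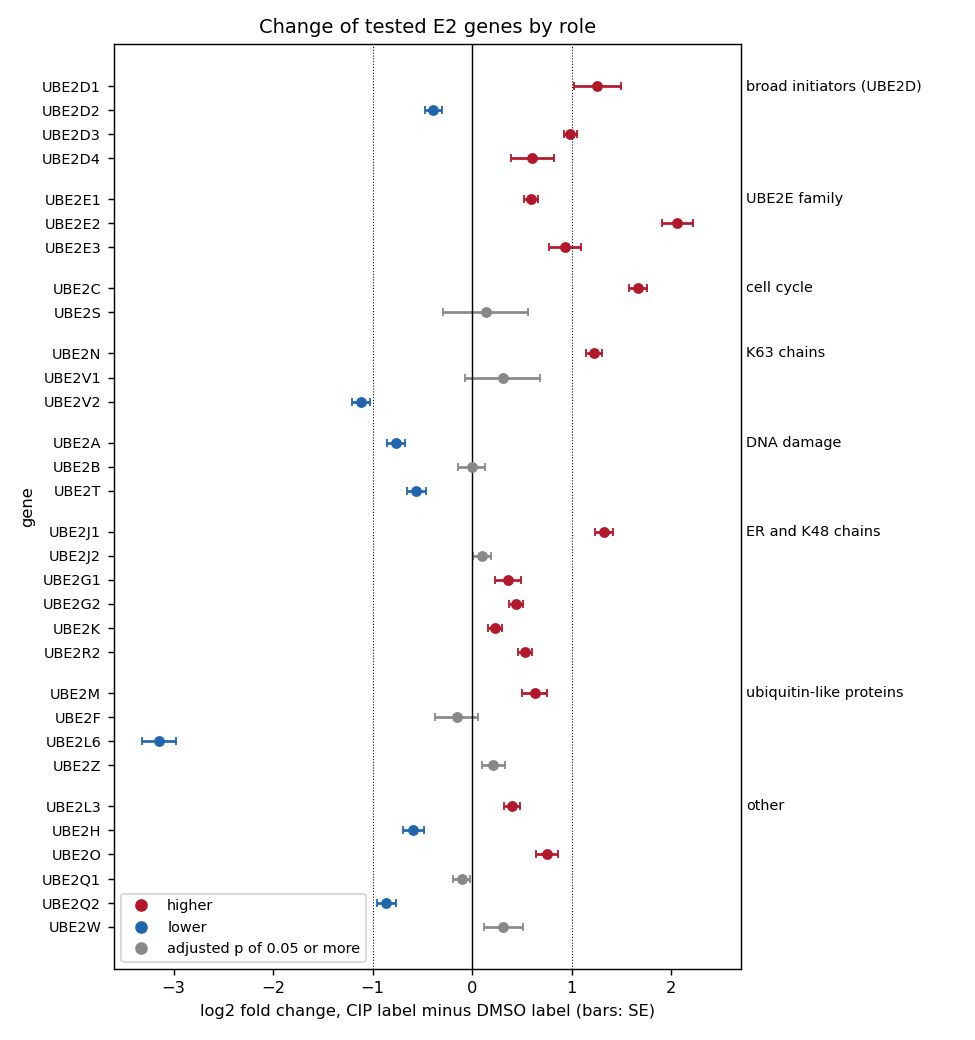
Log2 fold change (horizontal axis, CIP label minus DMSO label) of tested E2 genes, grouped by role on the vertical axis. Points are edgeR estimates, bars are SE and dotted lines mark 2-fold. UBE2L6 lies farthest to the left at -3.15 and UBE2E2 farthest to the right at 2.06.

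The UBE2D family are the E2s with the broadest choice of ligases and often place the first ubiquitin on a substrate. With the CIP label 3 members rose and 1 fell. UBE2D1 (chromosome 10, 58335006 to 58370748, GRCh38) stood at 9.82, 12 and 16.1 CPM under the CIP label and at 6.12, 5.17 and 4.51 CPM under the DMSO label. The groups did not overlap, and the log2 fold change was 1.26 ± 0.24 (SE, n = 3 per group, edgeR adjusted p = 1.86e-05). UBE2D3 stood at 356, 362 and 365 CPM against 175, 187 and 184 CPM, a log2 fold change of 0.99 ± 0.06 (edgeR adjusted p = 1.16e-15). UBE2D2 went the other way, at 69.6, 66.6 and 71.6 CPM against 95.8, 91.4 and 84.6 CPM, a log2 fold change of -0.39 ± 0.08 (edgeR adjusted p = 9.3e-05). Within each library the UBE2D2 to UBE2D3 ratio, which needs no scaling, was lower in all 3 CIP-labelled libraries, with a shift of -1.37 on the log2 scale. Of 12 pairs of related genes compared in this way, 9 had libraries that did not overlap, each at an exact permutation p = 0.1 (2-sided), the smallest that 3 against 3 libraries allow. Taken singly, 75.4% of all tested genes had labels that did not overlap. No such share was taken for pairs of other genes, so the 9 pairs cannot be set against a background. UBE2D4 stood at 12.5 ± 0.632 CPM (SD, n = 3) against 8.22 ± 1.77 CPM, a log2 fold change of 0.61 ± 0.21 (edgeR adjusted p = 0.0119). It was not called with library totals alone (adjusted p = 0.115) or without DMSO replicate 1 (adjusted p = 0.0874).

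These 4 genes encode near-identical proteins, so their sequences are shown around the catalytic cysteine to make plain how they can be told apart. The stretch is coding bases 223 to 276 of each gene (GENCODE release 29 transcripts, 5′ to 3′), with the cysteine at codon 85 of 147. Capitals mark the 16 of 54 positions at which at least 1 of the 4 genes differs.
UBE2D1: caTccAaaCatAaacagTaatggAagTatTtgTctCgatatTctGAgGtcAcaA
UBE2D2: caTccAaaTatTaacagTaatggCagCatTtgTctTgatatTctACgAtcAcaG
UBE2D3: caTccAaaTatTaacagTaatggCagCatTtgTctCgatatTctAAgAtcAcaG
UBE2D4: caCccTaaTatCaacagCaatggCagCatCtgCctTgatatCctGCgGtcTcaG
Over the whole coding sequence, 77% to 86.5% of bases and 88.4% to 97.3% of encoded residues were identical between members of the family. UBE2D2 and UBE2D3, the pair that moved in opposite directions, were the most alike, at 86.5% of bases and 97.3% of residues. QuantSeq reads come from the 3' ends and not from this stretch. Of all 50-base words in the last 300 bases of annotated transcripts, UBE2D1 and UBE2D4 shared none with another gene, UBE2D2 shared 3.56% (with UBE2D3) and UBE2D3 shared 11.2%, with UBE2D2 and pseudogenes. Of the 32 tested E2 genes, 10 overlap an annotated gene that had counts. UBE2D4 is one of them, beside URGCP and POLR2J4, and without a stated strand setting such reads cannot be separated.

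UBE2E enzymes resemble the UBE2D family but carry an N-terminal extension that limits them to short additions of ubiquitin. All 3 rose with the CIP label. UBE2E2 (chromosome 3, 23203098 to 23591925) stood at 40.8, 40.2 and 40.1 CPM under the CIP label and at 8.69, 12.3 and 7.78 CPM under the DMSO label. The coefficient of variation was 0.905% with the CIP label and 25.1% with the DMSO label, and the groups did not overlap. The difference was 4.17-fold, with a log2 fold change of 2.06 ± 0.15 (edgeR adjusted p = 5.09e-14), the largest rise among the E2 genes. UBE2E3 stood at 31.0 ± 2.15 against 16.3 ± 4.16 CPM (log2 fold change 0.93 ± 0.16, edgeR adjusted p = 2.72e-06) and UBE2E1 at 257 ± 21.2 against 171 ± 1.88 CPM (0.59 ± 0.07, adjusted p = 2.64e-09). The UBE2E1 to UBE2E2 ratio shifted by -1.51 on the log2 scale with no overlap of libraries, whereas the UBE2E1 to UBE2E3 ratio overlapped between groups (shift -0.37, exact permutation p = 0.2, 2-sided). UBE2E3 shared 13.1% of its 3' end words with another annotated gene, and UBE2E1 overlaps NKIRAS1, which had 39 to 71 counts in each library.

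UBE2C and UBE2S are the E2s of the anaphase-promoting complex, the ligase that marks cyclins and securin for destruction in mitosis: UBE2C starts the chain and UBE2S extends it. UBE2C rose while most proliferation genes fell. UBE2C (chromosome 20, 45812644 to 45816952) stood at 111, 127 and 108 CPM with the CIP label and at 37.5, 37.5 and 34.1 CPM with the DMSO label. Every CIP-labelled library lay above every DMSO-labelled one, by 3.17-fold over the means (log2 fold change 1.66 ± 0.09, edgeR adjusted p = 9.41e-18), and its 3' end shared no word with another annotated gene. The pseudogene UBE2CP5, listed separately, stood at 4.48 ± 0.904 against 5.67 ± 0.599 CPM and did not pass (edgeR adjusted p = 0.297). UBE2S stood at 2.89, 2.25 and 2.42 CPM against 2.86, 2.58 and 1.35 CPM, and these libraries overlap (log2 fold change 0.13 ± 0.42, edgeR adjusted p = 0.784). UBE2S is uncertain here, since it lies over RPL28, a ribosomal protein gene with 8096 to 11927 counts in each library, and shared 40.6% of its 3' end words with the pseudogenes UBE2SP1 and UBE2SP2.

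Of the 16 tested subunits and regulators of the anaphase-promoting complex, 8 rose (50%), 3 fell (18.8%) and 5 did not pass, with a median log2 fold change of 0.32. Here and for the lists that follow, the shares over all tested genes were 34.9% higher and 38.2% lower, and no list was tested against them. ANAPC13 (1.43 ± 0.12), ANAPC15 (0.86 ± 0.15) and ANAPC16 (0.66 ± 0.10), small subunits, were among those that rose, and CDC16, another core subunit, fell by 0.69 on the log2 scale. With library totals alone, 5 rose and 4 fell. Of 26 proliferation genes, 4 rose (15.4%), 15 fell (57.7%) and 7 did not pass, with a median of -0.50. KIF20A, a kinesin of cytokinesis, fell by 1.80 on the log2 scale, TPX2, a spindle assembly factor, by 1.48, AURKB, the kinase Aurora B, by 1.35, and CCNB1, cyclin B1, by 1.19. The 4 that rose were BIRC5 (1.10 ± 0.09), TYMS (0.80 ± 0.07), MCM5 (0.50 ± 0.07) and E2F1 (0.26 ± 0.12), named after their values were seen. BIRC5 encodes survivin, the Aurora B partner, and TYMS and MCM5 act in DNA synthesis.

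UBE2N is the E2 of chains linked through lysine 63, which signal rather than lead to degradation, and works in a pair with UBE2V1 (in NF-kB signalling) or UBE2V2 (in DNA damage tolerance), partners with no catalytic cysteine. UBE2N rose and UBE2V2 fell. UBE2N (chromosome 12, 93405684 to 93441947) stood at 145, 137 and 152 CPM with the CIP label and at 58.7, 58.7 and 68.5 CPM with the DMSO label, a log2 fold change of 1.22 ± 0.08 (edgeR adjusted p = 2.21e-15). UBE2V2 stood at 50.9, 45 and 43.1 CPM against 108, 93.8 and 99.1 CPM, a log2 fold change of -1.12 ± 0.09 (edgeR adjusted p = 4.06e-13). Neither gene's groups overlapped. The log2 ratio of UBE2N to UBE2V2 counts was 1.51, 1.61 and 1.81 under the CIP label and -0.88, -0.67 and -0.53 under the DMSO label, a shift of 2.34 for a pair added after its values were seen. UBE2V1 stood at 3.70, 3.78 and 3.63 CPM against 4.54, 2.77 and 1.58 CPM, with DMSO replicate 1 above and the other two below the CIP-labelled libraries (log2 fold change 0.31 ± 0.38, edgeR adjusted p = 0.47). UBE2V1 is uncertain, because all of its 3' end words (100%) also belong to the read-through gene annotated as TMEM189-UBE2V1. UBE2N overlaps NUDT4 at its 3' side, and NUDT4 had 317, 361 and 331 counts against 491, 492 and 443, the opposite direction to UBE2N.

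Among 14 tested ligases and adaptors of lysine 63 signalling to NF-kB, 7 rose (50%), 3 fell (21.4%) and 4 did not pass, with a median of 0.33. TRAF5, an adaptor of TNF receptors, stood at 0.346, 0.409 and 0 CPM with the CIP label and at 11.4, 7.18 and 11.8 CPM with the DMSO label. BIRC3 (1.19 ± 0.22), TRAF2 (0.98 ± 0.18) and MAP3K7 (0.74 ± 0.09), which act in the same receptor pathway, rose. With library totals alone, 4 of the 14 rose and 3 fell.

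**Figure D2:**
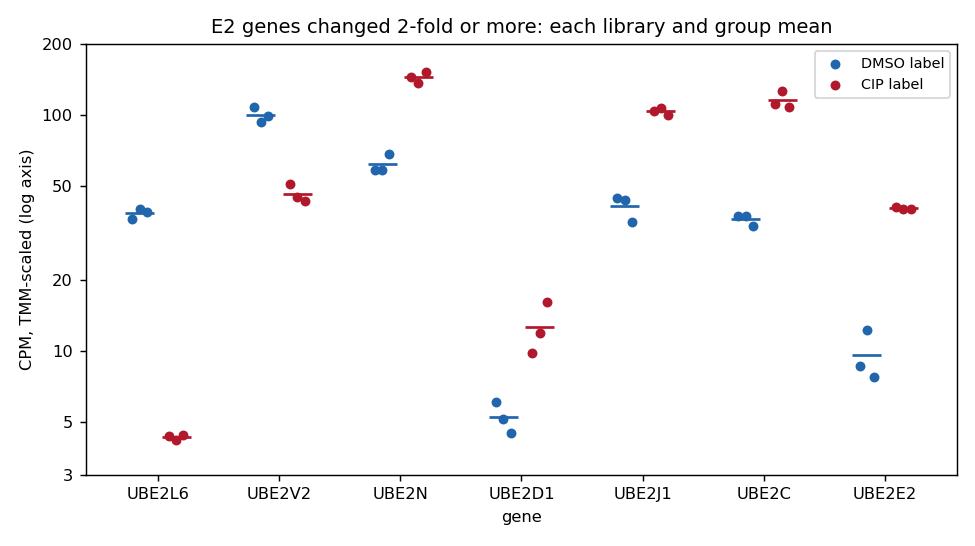
TMM-scaled CPM (vertical log axis) of the 7 E2 genes that were called and differed 2-fold or more (horizontal axis). Points are libraries, 3 per label, and lines are group means. In each gene the labels do not overlap, and UBE2L6 and UBE2V2 are the 2 that are lower with the CIP label.

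UBE2A and UBE2B are the human RAD6 enzymes, which tag PCNA with RAD18 at stalled forks and histone H2B with RNF20, and UBE2T tags FANCD2 in the Fanconi pathway of crosslink repair. UBE2A and UBE2T fell. UBE2A stood at 51.4, 49.5 and 46.6 CPM with the CIP label and at 84.3, 80.7 and 85.5 CPM with the DMSO label (log2 fold change -0.77 ± 0.09, edgeR adjusted p = 1.91e-09). UBE2B stood at 31.4, 29.6 and 26.2 CPM against 26.2, 26.5 and 34.9 CPM, which overlap (log2 fold change -0.01 ± 0.13, edgeR adjusted p = 0.972). The UBE2A to UBE2B ratio was lower in all 3 CIP-labelled libraries, by 0.77 on the log2 scale over the means. UBE2T stood at 55.7, 53.9 and 45.6 CPM against 78.0, 70.3 and 80.4 CPM, a log2 fold change of -0.56 ± 0.09 (edgeR adjusted p = 2.88e-06).

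More of the listed genes of the pathways of these 3 enzymes fell than rose. Of 17 genes of DNA damage tolerance and the Fanconi pathway, 4 rose (23.5%), 10 fell (58.8%) and 3 did not pass, with a median of -0.40. The 4 that rose were RNF168 (0.71 ± 0.13), FANCL (0.60 ± 0.13), WAC (0.40 ± 0.07) and USP1 (0.31 ± 0.07), named after their values were seen. Those named next fell. RNF8, a ligase recruited to DNA breaks, stood at 39.1 ± 2.94 against 87.1 ± 3.04 CPM (log2 fold change -1.16 ± 0.09). FANCD2 and FANCI, the substrate pair of UBE2T, stood at 76.1 ± 2.88 against 162 ± 10.3 CPM (-1.09 ± 0.08) and at 91.6 ± 2.57 against 183 ± 12.6 CPM (-1.0 ± 0.07). HLTF, a RAD5-type ligase that works with UBE2N and UBE2V2, stood at 68.6 ± 0.998 against 124 ± 5.10 CPM (-0.85 ± 0.08). Of the proliferation genes given above, 15 of 26 moved the same way, and their part in the change of UBE2T was not tested.

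The start of UBE2T is shown because cell-cycle promoters are known to carry CCAAT boxes and the element TTTGAA. The window is chr1:202341967-202342186 (RefSeq, GRCh38.p14, minus strand), which ends 30 bases before the RefSeq start, with TTTGAA and both CCAAT matches in capitals.
UBE2T: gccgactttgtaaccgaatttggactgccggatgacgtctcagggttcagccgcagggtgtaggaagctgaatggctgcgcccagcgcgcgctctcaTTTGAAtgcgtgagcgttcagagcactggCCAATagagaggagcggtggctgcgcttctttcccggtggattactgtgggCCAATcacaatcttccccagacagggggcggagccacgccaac
TTTGAA or TTCGAA, searched on both strands over windows of 300 bases from 250 before to 50 after each annotated start, was found in 16.4% of 35116 promoter windows, and CCAAT in 34.6%. Of the 25 tested E2 genes with a window, 2 held the first motif and 8 held CCAAT. Some genes have several windows, and a gene was counted if any of them held the motif. Shares of windows and counts of genes are therefore unlike units. A match is a string of letters and not a shown binding site.

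E2s of protein disposal in the endoplasmic reticulum (ER) sit in its membrane (UBE2J1, UBE2J2) or are recruited to it (UBE2G2), and hand ubiquitin to ligases that clear misfolded proteins. UBE2J1 rose and UBE2J2 did not pass the test. UBE2J1 (chromosome 6, 89326625 to 89352722) stood at 104, 107 and 100.1 CPM under the CIP label and at 44.6, 43.7 and 35.4 CPM under the DMSO label. The CIP-labelled libraries were all higher, by 2.51-fold (log2 fold change 1.33 ± 0.09, edgeR adjusted p = 7.96e-15). UBE2J2 stood at 79.3, 67.4 and 87.6 CPM against 72.0, 75.9 and 70.3 CPM, a log2 fold change of 0.10 ± 0.09 (edgeR adjusted p = 0.319). Without CIP replicate 2 it was called higher (0.21, adjusted p = 0.043). The log2 ratio of UBE2J1 to UBE2J2 was 0.42 ± 0.24 (SD) under the CIP label and -0.82 ± 0.15 under the DMSO label, a shift of 1.24 with no overlap. UBE2G2 stood at 143 ± 4.57 against 105 ± 3.77 CPM, a log2 fold change of 0.44 ± 0.07 (edgeR adjusted p = 1.93e-06).

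Of 15 ligases and channel proteins of this pathway, 8 rose (53.3%), 4 fell (26.7%) and 3 did not pass, with a median of 0.36. Scaled by library totals alone, 7 rose and 5 fell, with a median of 0.13. SYVN1, the ligase HRD1, stood at 43.1, 36.5 and 37.1 CPM against 11.8, 11.1 and 11.4 CPM, a log2 fold change of 1.76 ± 0.14 (edgeR adjusted p = 2.9e-13). DERL3, a derlin of the channel, rose by 1.20 ± 0.13, while its relative DERL1 fell by 1.08 and the ligase RNF139 by 1.00 on the log2 scale. The derlins therefore moved in both directions.

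The region before UBE2J1 is shown because the unfolded protein response factors XBP1 and ATF6 are known to bind TGACGTG. The window is chr6:89352849-89352972 (RefSeq, GRCh38.p14, minus strand), which ends 126 bases before the RefSeq start, and the capitals mark TGACGTG read on the opposite strand, at -230 to -224 relative to the start.
UBE2J1: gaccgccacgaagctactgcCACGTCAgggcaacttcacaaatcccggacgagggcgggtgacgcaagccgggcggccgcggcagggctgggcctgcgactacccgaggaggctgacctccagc
TGACGTG was found on either strand in 1.97% of the 35116 windows. Counted by gene and not by window, it was found in 2 of the 25 E2 genes with a window, UBE2J1 and UBE2O. The 2 figures are unlike units.

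UBE2G1, UBE2R2 and CDC34 build degradative chains linked through lysine 48 on substrates of the cullin-RING ligases, and UBE2K makes such chains on its own. UBE2R2 rose and CDC34, its close relative under an older name, fell. UBE2R2 stood at 165, 161 and 158 CPM with the CIP label and at 103, 112 and 119 CPM with the DMSO label (log2 fold change 0.53 ± 0.07, edgeR adjusted p = 6.66e-08). CDC34 stood at 58.8, 55.4 and 65.2 CPM against 97.0, 106 and 104 CPM (-0.78 ± 0.09, edgeR adjusted p = 5.6e-10). Their ratio shifted by 1.32 on the log2 scale, with the 3 libraries of each label apart. UBE2K stood at 172 ± 17.0 against 147 ± 1.02 CPM (0.23 ± 0.07, adjusted p = 0.00597) and UBE2G1 at 32.1 ± 4.52 against 25.0 ± 0.737 CPM (0.36 ± 0.13, adjusted p = 0.0141). Both calls depend on the settings: with library totals alone UBE2K was at -0.0028 and UBE2G1 lost its call (adjusted p = 0.383), as it did with DESeq2 (0.0538), without CIP replicate 1 (0.0945) and without DMSO replicate 2 (0.0527). The UBE2G1 to UBE2G2 ratio overlapped between labels (shift -0.09, exact permutation p = 0.8, 2-sided).

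**Figure D3:**
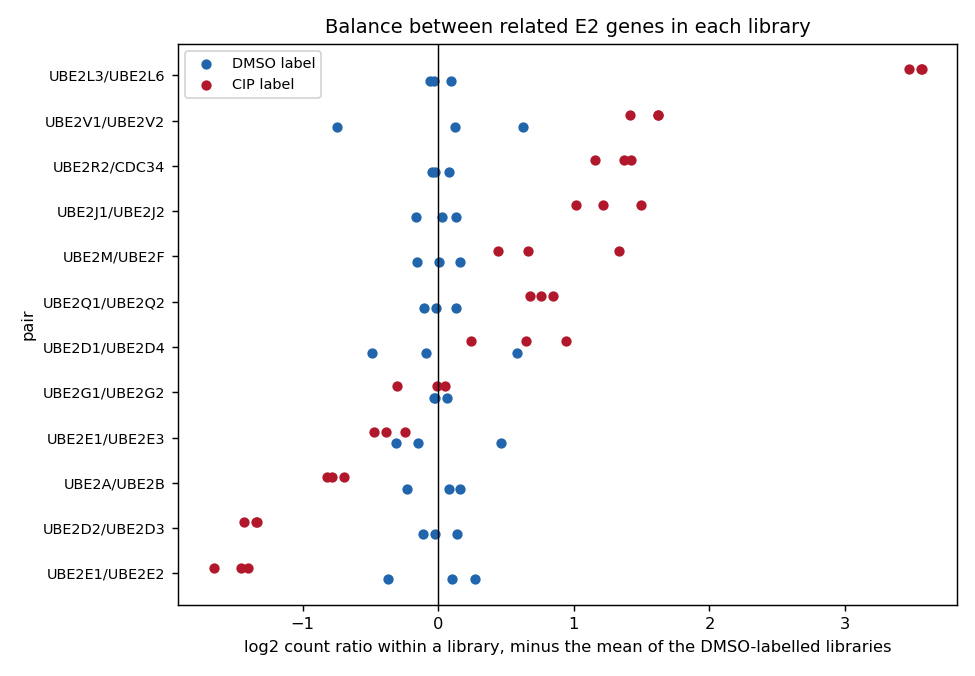
Log2 count ratio of 12 pairs of related E2 genes within each library (horizontal axis, set to 0 at the mean of the DMSO-labelled libraries), 1 pair per row. Points are libraries. In 9 pairs the 3 CIP-labelled libraries lie wholly to 1 side, from a shift of -1.51 (UBE2E1 to UBE2E2) to 3.53 (UBE2L3 to UBE2L6), and in 3 they overlap. Pairs of other genes were not counted for comparison.

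UBE2L3 and UBE2L6 are close relatives with different cargo: UBE2L3 serves ubiquitin to HECT and RBR ligases, and UBE2L6 is the E2 of ISG15, a ubiquitin-like protein induced by interferon. Of the 32 tested E2 genes UBE2L6 had the largest change. UBE2L6 (chromosome 11, 57551662 to 57567935) stood at 4.39, 4.19 and 4.43 CPM under the CIP label and at 36.4, 40.0 and 38.9 CPM under the DMSO label. It was 8.85-fold lower with the CIP label, the libraries of each label lay close together, and the log2 fold change was -3.15 ± 0.17 (edgeR adjusted p = 4.48e-18). UBE2L3 stood at 111, 105 and 104 CPM against 81.4, 80.6 and 79.9 CPM, a log2 fold change of 0.40 ± 0.08 (edgeR adjusted p = 2.32e-05). Their ratio gave the largest shift of the 12 pairs, 3.53 on the log2 scale, and neither gene shared a 3' end word with another annotated gene.

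More of the other ISG15 and FAT10 conjugation genes rose than fell. Of 7 tested, 4 rose (57.1%), 1 fell (14.3%) and 2 did not pass, with a median of 0.58. UBA7, the E1 of ISG15, stood at 8.50 ± 0.665 against 4.72 ± 0.453 CPM (log2 fold change 0.85 ± 0.26, edgeR adjusted p = 0.0038), and TRIM25, a ligase for ISG15, at 134 ± 11.3 against 77.9 ± 3.53 CPM (0.78 ± 0.08). The 1 that fell, named after its values were seen, was USP18, the ISG15 protease, at 0, 0 and 6 counts against 47, 46 and 31. ISG15 and its ligase HERC5, also chosen after their values were seen, were the 2 that did not pass (-0.07 ± 0.32 and 0.07 ± 0.12). Of 17 tested interferon-stimulated genes, 1 rose (5.88%), 8 fell (47.1%) and 8 did not pass, with a median of -0.33. The share called in either direction was 52.9%, beside 73.1% of all tested genes. MX2, an antiviral GTPase, stood at 1.36 ± 1.12 against 111 ± 12.4 CPM (-6.40 ± 0.22), IFI6 at 3.72 ± 2.29 against 44.2 ± 5.56 CPM (-3.55 ± 0.25) and OAS3 at 2.36 ± 0.748 against 8.46 ± 2.24 CPM (-1.83 ± 0.32). IRF1, an interferon-induced transcription factor, was the 1 that rose, at 54.0 ± 2.40 against 10.5 ± 0.0993 CPM (2.37 ± 0.13). Summed monocyte markers, under the DMSO label mostly LYZ and CTSB, also differed between the labels, as given above, and their part was not tested.

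Partners of UBE2L3 among the RBR ligases mostly fell while UBE2L3 rose. Of 12 tested RBR ligases and their subunits, 1 rose (8.33%), 8 fell (66.7%) and 3 did not pass, with a median of -0.41. RNF19A stood at 5.6 ± 0.417 against 22.7 ± 3.70 CPM (log2 fold change -2.02 ± 0.19), ARIH1, which works with cullin ligases, at 82.2 ± 1.40 against 153 ± 1.07 CPM (-0.90 ± 0.07), and CUL9 and the linear chain subunit SHARPIN at -1.11 ± 0.19 and -0.86 ± 0.18. RNF31, the catalytic subunit of the same linear chain complex, was the 1 that rose (0.56 ± 0.18) and was named after its values were seen. With library totals alone, none of the 12 rose and 8 fell.

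UBE2M and UBE2F load NEDD8 onto cullins, and UBE2Z takes ubiquitin or FAT10 from UBA6. UBE2M rose and UBE2F did not pass. UBE2M stood at 42.3, 44.2 and 35.4 CPM with the CIP label and at 25.8, 24.4 and 28.8 CPM with the DMSO label (log2 fold change 0.63 ± 0.12, edgeR adjusted p = 2.77e-05). UBE2F stood at 7.27, 12.2 and 11.4 CPM against 10.1, 11.9 and 12.5 CPM, which overlap (-0.16 ± 0.21, edgeR adjusted p = 0.52). The UBE2M to UBE2F ratio shifted by 0.81 with no overlap, and UBE2F shared 22.1% of its 3' end words with other genes, mainly the read-through UBE2F-SCLY, which had 0 counts. UBE2Z stood at 49.3 ± 1.85 against 42.6 ± 8.68 CPM (0.21 ± 0.12, adjusted p = 0.0949), with DMSO replicate 3 at 52.6 CPM above the CIP-labelled libraries, and was called without that library (0.38, adjusted p = 0.00504).

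Of 17 neddylation genes, 10 rose (58.8%, beside 34.9% of all tested genes), 2 fell (11.8%, beside 38.2%) and 5 did not pass, with a median of 0.50. The share called in either direction, 70.6%, was near the 73.1% of all tested genes. Scaled by library totals alone, 8 rose and 4 fell. DCUN1D1, DCUN1D4 and DCUN1D5, co-ligases that help the NEDD8 E2s act on cullins, rose by 1.38 ± 0.20, 1.21 ± 0.16 and 1.22 ± 0.10 on the log2 scale. Their relatives DCUN1D2 (-0.10 ± 0.16) and DCUN1D3 (0.22 ± 0.34) did not pass. CUL3 rose by 0.82 ± 0.12, while the 2 that fell were CUL4B (-0.76 ± 0.09) and CUL4A (-0.25 ± 0.07). DCUN1D2, DCUN1D3, CUL4A and CUL4B were named after their values were seen. The SUMO list was mixed, with 8 of 17 higher (47.1%), 6 lower (35.3%) and 3 not passing (median 0.37), and 5 higher and 7 lower with library totals alone. Of the SUMO ligases, PIAS3 stood at 5.12 ± 0.467 against 22.1 ± 2.74 CPM (-2.11 ± 0.20) and PIAS2 at 52.8 ± 6.14 against 18.3 ± 1.12 CPM (1.53 ± 0.12). SAE1, a subunit of the SUMO E1, fell by 1.09 on the log2 scale, and SENP6, a SUMO protease, rose by 1.10 ± 0.11.

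UBE2H, the E2 of the CTLH ligase complex, fell, at 35.9 ± 1.49 against 54.0 ± 0.158 CPM (log2 fold change -0.59 ± 0.10, edgeR adjusted p = 4.24e-06). Of 11 CTLH subunits, 6 rose (54.5%), 2 fell (18.2%) and 3 did not pass, with a median of 0.29, and RANBP9 (1.02 ± 0.18) and RMND5A (0.99 ± 0.10) were the highest. With library totals alone, 4 of the CTLH subunits rose and 3 fell, with a median of 0.06. UBE2O, a large enzyme that joins E2 and E3 functions, rose, at 45.9 ± 1.22 against 27.3 ± 2.30 CPM (0.75 ± 0.11, edgeR adjusted p = 4.49e-07). UBE2W, which tags protein N-termini, stood at 14.1 ± 1.43 against 11.4 ± 2.43 CPM and did not pass (0.31 ± 0.20, adjusted p = 0.152). UBE2Q1 and UBE2Q2 are less studied E2s with long N-terminal parts, and only UBE2Q2 was called. UBE2Q2 stood at 44.0, 44.4 and 40.1 CPM against 83.7, 76.1 and 73.2 CPM (-0.86 ± 0.09, edgeR adjusted p = 5.55e-10), and UBE2Q1 at 74.6, 71.1 and 72.3 CPM against 77.9, 83.4 and 72.4 CPM (-0.10 ± 0.08, adjusted p = 0.269). With library totals alone UBE2Q1 was called lower too (-0.33, adjusted p = 6.2e-04). The UBE2Q1 to UBE2Q2 ratio shifted by 0.76 with no overlap, and the pseudogene UBE2Q2P1, listed separately, had 52, 63 and 67 counts against 282, 303 and 253.

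The E1 enzymes that load all of these E2s were mixed: 5 of 10 rose (50%), 3 fell (30%) and 2 did not pass, with a median of 0.20. Scaled by library totals alone, 5 rose, 5 fell and the median was -0.03. UBA1, the main ubiquitin E1, stood at 98.8 ± 3.37 against 187 ± 23.7 CPM (log2 fold change -0.92 ± 0.08, edgeR adjusted p = 1.7e-12), and UBA6, the second ubiquitin E1, at 97.2 ± 2.32 against 64.8 ± 5.77 CPM (0.58 ± 0.08, adjusted p = 1.9e-07). MOCS3, which activates the ubiquitin-like URM1, rose by 1.40 ± 0.21. Of 8 tested E2-like genes outside the UBE2 names, 3 rose (37.5%), 3 fell (37.5%) and 2 did not pass (median 0.34). ATG10, an E2 of autophagy conjugation, fell by 1.20 on the log2 scale. UFC1, the E2 of UFM1, and TSG101, an E2 variant of endosomal sorting, rose by 0.60 ± 0.07 and 0.67 ± 0.16.

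**Figure D4:**
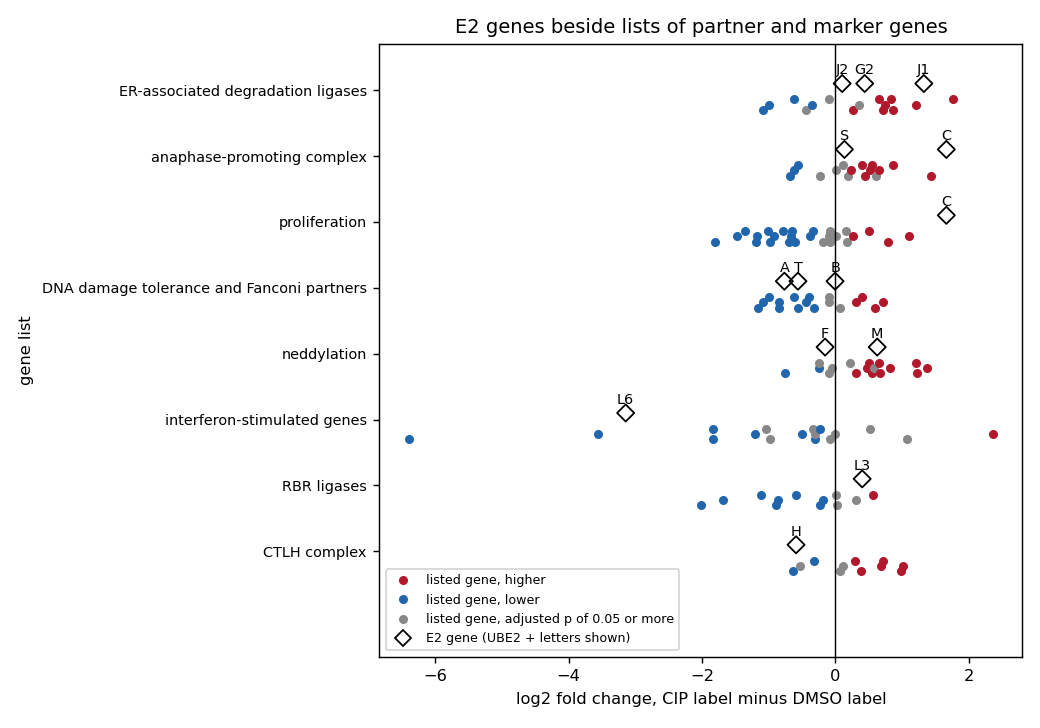
Log2 fold change (horizontal axis, CIP label minus DMSO label) of tested genes in 8 lists of partner and marker genes (rows). Filled points are listed genes coloured by call, and open diamonds are E2 genes that work with each list. UBE2C at 1.66 lies to the right of all 26 proliferation genes, UBE2L6 at -3.15 among the lowest interferon-stimulated genes, and UBE2H at -0.59 to the left of most of the CTLH subunits.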

How the data were processed

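RNA of 6 libraries, 3 per label, was read by QuantSeq 3' sequencing, per the labels' protocols. The authors deposited whole-number counts per gene symbol, 1 file per library. Tools named in the submitters' processing notes are STAR, HTSeq, fastp and bcl2fastq (2.20.0.422), with the build GRCh38. Not given in the sources used here: annotation release, strand setting and the rule for reads with several matches. Groups came from the sample titles. The members and all gene lists were chosen with earlier results of these data known.

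Counts were tested with edgeR 4.0.16 (R 4.3.3) (2-sided quasi-likelihood test, group as the sole term) on genes kept by filterByExpr, scaled by TMM, and p-values were adjusted over 12844 genes by Benjamini-Hochberg. CPM are counts over TMM-scaled library totals, and 3 counts are worth 0.287 to 0.346 CPM. Pair ratios are log2 of counts plus 0.5, tested with an exact permutation test. Members were described by role, with values per library for those called at 2-fold or more or differing from a paralog in call or direction. Of each list up to 4 called genes of at least 5 CPM with the largest change were named, and always CDC34, MPO, MYC and CDKN2A. A few genes are counted in lists and totals but their values are not reported here. In simulated data (12249 genes tested, CIP against DMSO), true calls numbered 34 of 67 at 1.5-fold, 57 of 67 at 2-fold and 64 of 66 at 4-fold, beside 6 false ones. No other genes were changed there, whereas 9394 of 12844 were called in the real libraries. These rates therefore do not describe the real comparison. Alternatives were RLE scaling, library totals alone, no filter, DESeq2 1.42.0, limma-voom (limma 3.58.1), the replicate block and each library left out. Those for the partner and marker lists were chosen after seeing the data. Shared 3' ends were searched in GENCODE release 29 transcripts, and positions of 34 members were taken from RefSeq. No library was a duplicate: chi-square per gene between replicates was 3.82 to 7.66.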

Additional observations from a re-analysis of the deposited data

How the results depend on the processing

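The E2 counts of 17 higher and 7 lower were the same without the low-count filter, with RLE scaling, with limma-voom and with the replicate block. They were 16 and 7 with DESeq2, 13 and 8 with library totals alone, and 16 to 18 and 7 when each library was left out. Over all genes, 9061 (replicate block) to 10349 (no filter) were called, beside 9394. Library totals alone turned UBE2K to -0.0028 on the log2 scale, not called there. The cause was not tested. The ratio of summed E2 levels was 1.25 with RLE scaling and 1.08 with library totals alone, beside 1.27, and ran from 1.26 to 1.28 when each library was left out. Non-overlapping pairs numbered 9 to 10 when each library was left out. Single E2 calls changed under at least 1 setting for UBE2D4, UBE2G1, UBE2K, UBE2Q1, UBE2J2 and UBE2Z, with values given above. Libraries with the same number did not deviate together (Pearson r = -0.019, -0.027 and -0.0099 over genes, which are not independent), so the numbers were not taken as pairs. Depth limits UBE2S, UBE2V1 and UBE2L5 most, each under 5 CPM.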
